A study of Mus musculus with 6 samples.

Results

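The MHC class II genes described here are H2-Aa, H2-Ab1, H2-Eb1, Cd74, H2-DMa, H2-DMb1 and Ciita, which were taken by name from the table of counts and make up 7 of its 31053 genes. All 7 had counts, and none was filtered out. They were followed across 12 cell type labels of 33961 cells from CT26 tumors, a colorectal carcinoma line grown under the skin of female Balb/c mice that were 5 to 6 weeks old when obtained.

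The samples were leukocytes enriched with anti-CD45 beads from tumors removed 5 days after treatment. All mice were wild type and carried the same tumor line. The sample labels name 3 groups of 2 tumors, which received vehicle, a low dose or a high dose of a bispecific antibody. The antibody joins anti-PD-1 to the ligand of GITR, a costimulatory receptor on T cells. In the deposited labels the high dose is 30 mg/kg, and the low dose is 10 mg/kg in the treatment protocol and 30 mg/kg in the sample labels. The study's text gives this experiment another dose and an isotype control, so the doses and the control are uncertain. The table holds 4 libraries, M1, M2, M5 and M6, which no label ties to a treatment, so the libraries were not treated as replicates, no treatment was compared and no p-value was computed. Each value is given per library or as the median and range over the 4 libraries.

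Class II molecules are pairs of an alpha and a beta chain that show peptides from engulfed material to CD4+ T cells. The invariant chain guides new pairs to the endosome and fills their groove until the exchange factor DM swaps its remnant for a peptide, a step that the related DO molecule inhibits. CIITA is a coactivator that does not bind DNA itself but is recruited by RFX, CREB and NF-Y factors sitting on the X and Y boxes of class II promoters. Dendritic cells and B cells make these genes all the time, macrophages and many other cells make them after interferon-gamma, and conventional mouse T cells do not transcribe them.

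H2-Aa encodes the alpha chain and H2-Ab1 the beta chain of the molecule I-A, and H2-Eb1 encodes the beta chain of I-E. Cd74 encodes the invariant chain, and H2-DMa and H2-DMb1 encode the chains of DM. In GRCm38 (GENCODE M21), 5 of the 7 genes lay within 197 kb of chromosome 17, from 34119541 to 34316674, which is the class II region of the mouse MHC. H2-DMa spanned 34119541 to 34139101, H2-DMb1 34153072 to 34160230, H2-Ab1 34257689 to 34269419 and H2-Eb1 34305867 to 34316674, all on the plus strand. H2-Aa spanned 34282744 to 34287823 on the minus strand. Ciita lay on chromosome 16, from 10480059 to 10528418.

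The promoters of the class II genes carry the boxes on which CIITA is recruited, so the 250 bases before the RefSeq start of H2-Aa and H2-Eb1 (GRCm38.p6) are shown, with matches to the Y box core TGATTGG, to the X2-like string GATGNTGCT and to the cyclic AMP response element TGACGTCA in capitals. H2-Aa is read from the minus strand of chr17:34287824-34288073 and H2-Eb1 from the plus strand of chr17:34305617-34305866.
H2-Aa: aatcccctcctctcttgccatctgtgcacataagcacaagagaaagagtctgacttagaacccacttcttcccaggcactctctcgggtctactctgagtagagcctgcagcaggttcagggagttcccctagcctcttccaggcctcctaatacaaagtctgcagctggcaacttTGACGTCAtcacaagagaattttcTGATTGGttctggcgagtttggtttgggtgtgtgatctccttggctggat
H2-Eb1: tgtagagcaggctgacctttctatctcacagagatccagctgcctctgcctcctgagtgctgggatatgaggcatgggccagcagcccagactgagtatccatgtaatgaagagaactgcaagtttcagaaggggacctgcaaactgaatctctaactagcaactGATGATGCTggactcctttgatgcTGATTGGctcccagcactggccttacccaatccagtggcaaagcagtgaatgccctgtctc

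The Y box core began 50 bases before the start of H2-Aa and 61 bases before that of H2-Eb1. The response element of H2-Aa ended 16 bases before its Y box core, and the X2-like string of H2-Eb1 ended 15 bases before its own. H2-DMb1 and its near copy H2-DMb2 each held GATGATGCT followed by 16 bases and the Y box core, and the paralog H2-Eb2 held GATGCTGCT followed by 15 bases and the core. The inhibitor genes H2-Oa and H2-Ob held the Y box core alone, and neither window of H2-DMa, for which RefSeq lists 2 starts, held any of the strings. Searched on both strands of the same 250 bases before the start of all 32851 RefSeq entries, the Y box core was found in 7.23%, the X2-like string in 0.916%, the response element in 1.55%, and the core with the X2-like string in 0.0487% (16 windows). The strings were chosen after these windows had been looked at. H2-Ab1, Ciita and Cd74 had no entry in the set used here and so were not searched.

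Cd74 lay outside the class II region as well, on chromosome 18 from 60803848 to 60812652.

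The cells came with 158337797 to 315577167 UMIs per library. A UMI marks 1 captured transcript, and CPM is the UMIs of a gene per 1000000 UMIs of the cells of a label in 1 library. Only the 3' end of a transcript was counted, so CPM does not scale with gene length. The median cell held 2811 UMIs under the label B cells, 8027 under Myeloid, 9549 under DC and 40692 under Stroma, and 111 barcodes occurred in more than 1 library. Although leukocytes had been enriched, 15687 cells carried the label Stroma. The labels had been set by the authors from the expression of these same cells, so differences between labels are a description. Summed over the list, 8 DC markers had 1126 to 2174 CPM in cells labelled DC and 399 to 593 in B cells, 5 B cell markers had 3884 to 6047 CPM in B cells and 3.72 to 24.5 in DC, and 7 macrophage markers had 8386 to 10193 CPM in Myeloid and 641 to 786 in DC.

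Together the 7 genes were highest in cells labelled DC and B cells. Their summed level in DC was 21451, 26488, 33434 and 26385 CPM (libraries M1, M2, M5, M6). In B cells it was 23847, 22631, 23434 and 23585 CPM in the same order, and in Myeloid cells 7169, 9722, 10332 and 10288 CPM. The ranges of DC and B cells overlapped, and each of the 4 Myeloid values lay below all of theirs. No other label exceeded 1540.4 CPM in any library. T cell MEM followed with a median of 1415 CPM (335 to 1540.4), ILC with 1308 (785 to 1505), T cell EFF with 611 (379.9 to 892) and T cell Naive with 435 (237 to 470.0). NKT had 355 (251 to 424), Stroma 255 (154 to 308), NK cells 244 (184 to 381), T cells 219 (71.9 to 682) and Stem cells 197 (8.97 to 783). From T cell MEM downwards, every label overlapped its neighbour in this order.

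**Figure D1:**
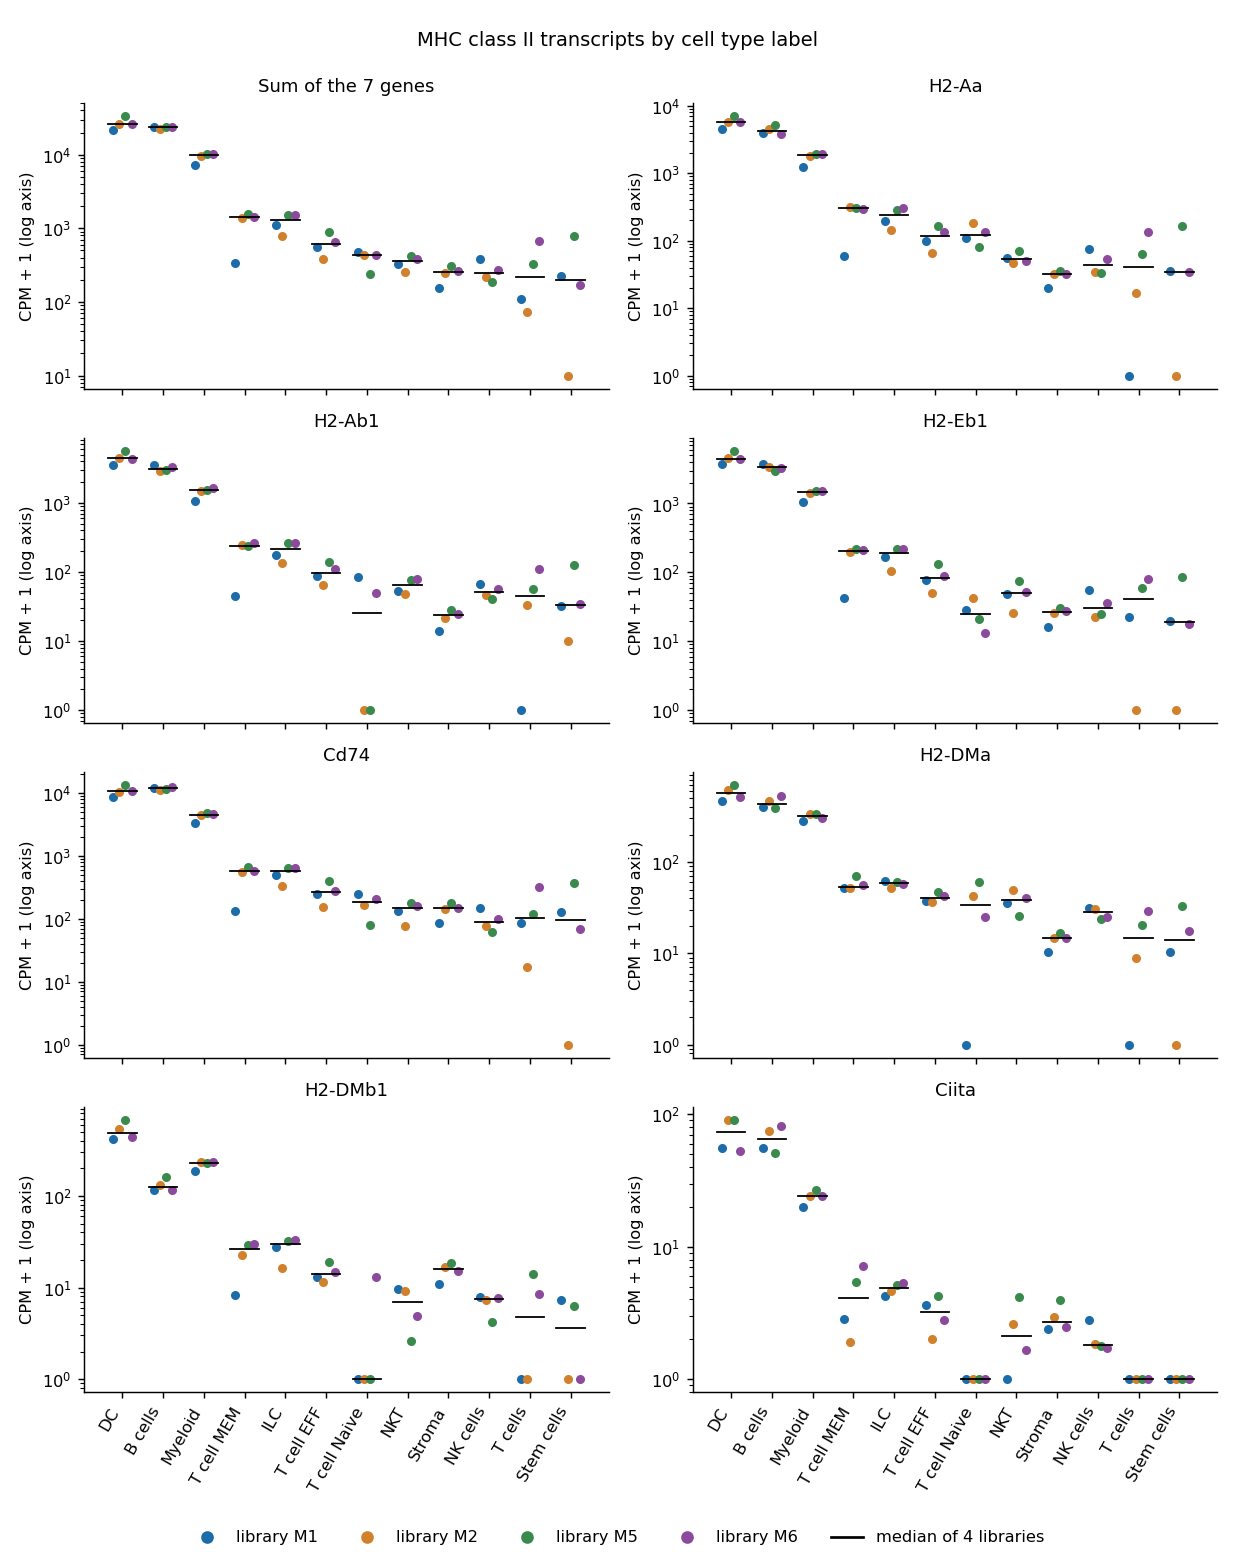
Level of the 7 genes summed and of each gene alone, in CPM plus 1 on a log axis, for the 12 cell type labels; a dot is 1 library and a bar the median of 4 libraries. DC, B cells and Myeloid stand above the other labels for each gene, and H2-DMb1 is the panel in which Myeloid (median 229.6 CPM) lies above B cells (124 CPM).

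Of all 891678 UMIs of the 7 genes, 40.4% were in Myeloid cells, which held 4.15% of all UMIs in the table. DC held 24.5% of the class II UMIs with 0.891% of all UMIs, and B cells 1.16% with 0.0484%. Stroma, which held 75.6% of all UMIs, contributed 17.2%, and ILC contributed 9.82%. The counts of H2-Aa, H2-Ab1 and H2-Eb1 rest on reads aligned to a genome of another mouse strain, C57BL/6J, which carries other class II alleles than Balb/c, and the reads lost by this were not measured.

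The I-A and I-E chains were more abundant in DC than in Myeloid cells. A gene was called here if it differed by at least 2-fold in the same direction in each library, among genes with a mean of at least 10 CPM in the pair of labels, with 1 CPM added to each value. By this rule 5 of the 7 genes were higher in DC than in Myeloid, against 3.09% of 7776 genes, while the median log2 ratio of all those genes was 0.00. H2-Aa had 4531, 5819, 7059 and 5756 CPM in DC against 1225, 1827, 1927 and 1946 CPM in Myeloid (M1, M2, M5 and M6), a median ratio of 3.41-fold. For H2-Ab1 the ratio was 3.17-fold, with medians of 4444 and 1512 CPM, and for H2-Eb1 it was 3.32-fold, with 4458 and 1479 CPM. None of these DC ranges overlapped the Myeloid range.

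Cd74 was the most abundant of the 7 genes in each of these labels. It had 8747, 10385, 13356 and 10860 CPM in DC, 12033, 11200, 11761 and 12388 CPM in B cells and 3324, 4400, 4745 and 4635 CPM in Myeloid. The invariant chain was thus 2.49-fold higher in DC than in Myeloid, a smaller ratio than those of the chains it escorts. It was also the 1 gene of the 7 called in B cells over Myeloid, at 2.61-fold, where 4.6% of 7832 genes were called higher. DC and B cells overlapped in Cd74, with a median log2 ratio of -0.15 (-0.46 to 0.18).

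The DM genes differed less between DC and Myeloid than the chains did. H2-DMa had 466, 611, 695 and 515 CPM in DC and 282, 331, 330.5 and 301 CPM in Myeloid, a median of 1.77-fold. H2-DMb1 had 423, 537, 682 and 444 CPM in DC and 188, 232, 227 and 233 CPM in Myeloid, a median of 2.28-fold that stayed under 2-fold in at least 1 library (log2 0.92 to 1.58). Neither was called, although the ranges did not overlap.

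B cells had little H2-DMb1. Their 117, 132, 162 and 116 CPM lay below the range of Myeloid and of DC, and H2-DMb1 was the 1 gene of the 7 called in DC over B cells, at 3.93-fold (7.55% of 7708 genes called higher). H2-DMb2, which encodes a nearly identical DM beta chain, ran the other way, with 205, 265, 274 and 217 CPM in DC, 560.0, 584, 586 and 658 CPM in B cells and 56.3, 66.7, 58.5 and 60.9 CPM in Myeloid. The ratio of H2-DMb2 to H2-DMb1 was 4.62 in B cells (3.62 to 5.69), 0.486 in DC (0.402 to 0.494) and 0.274 in Myeloid (0.2575 to 0.3003). How reads that fit both genes were shared between them was not tested, and B cells gave only 57 UMIs of H2-DMb1 and 264 of H2-DMb2.

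The genes of DO showed the same order of labels. H2-Oa, its alpha chain, had 155 CPM in B cells (107 to 171), 41.5 in DC (34.2 to 52.3) and 5.10 in Myeloid (4.12 to 6.72). H2-Ob, its beta chain, had 139 CPM in B cells (101 to 196), 24.4 in DC (22.8 to 24.8) and 2.26 in Myeloid (2.00 to 3.30). H2-DMb2, H2-Oa and H2-Ob were each called higher in B cells than in Myeloid (9.82, 21.8 and 39.5-fold), higher in DC than in Myeloid (3.76, 6.87 and 7.73-fold) and lower in DC than in B cells. H2-Oa and H2-Ob passed the filter of 10 CPM against Myeloid only through the B cells or DC, so those calls carry no weight as a count. H2-Eb2, a paralog of H2-Eb1, had 15 UMIs in all DC, 2 in B cells and 5 in Myeloid. H2-Ea-ps was not analysed here.

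**Figure D2:**
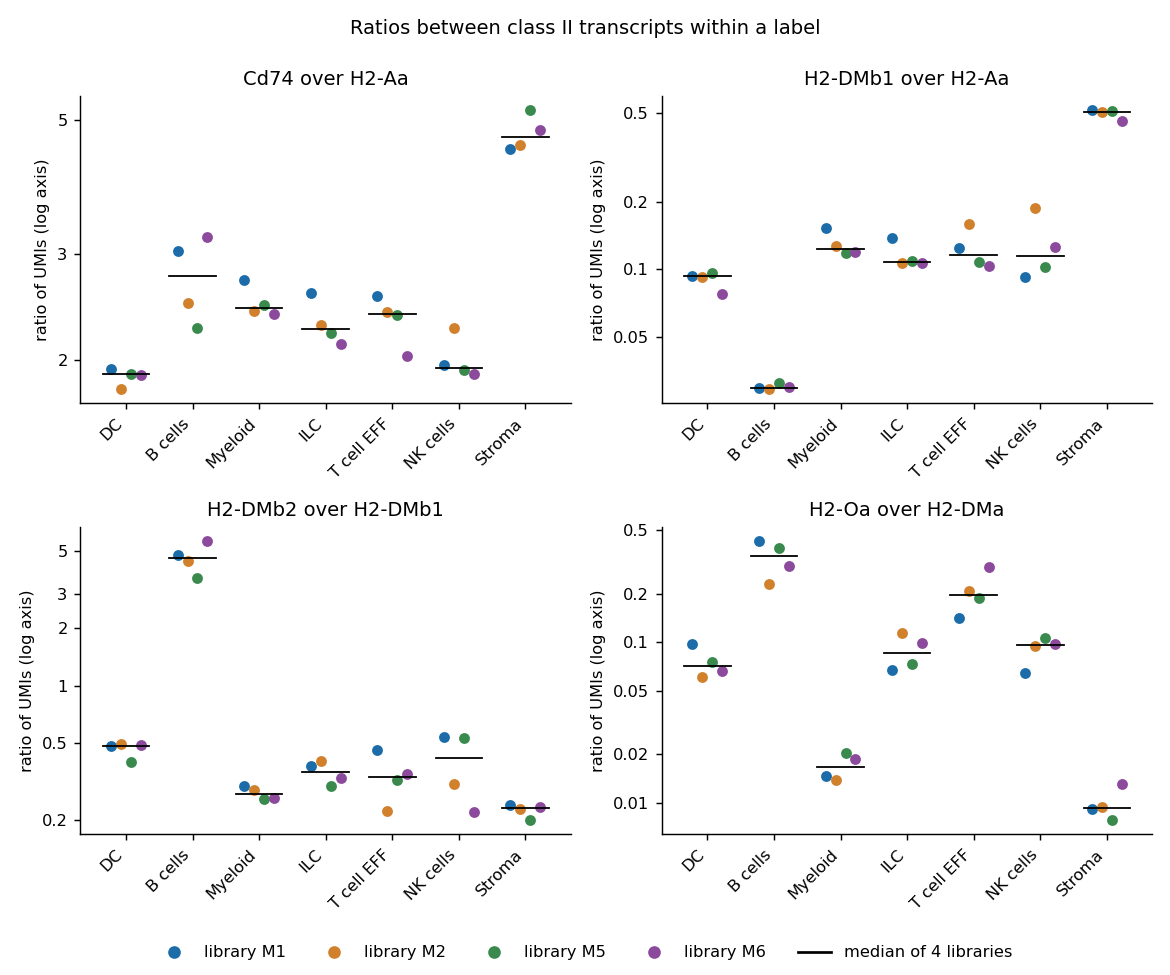
Ratio between the UMIs of 2 class II genes within a label, on log axes, for Cd74 over H2-Aa, H2-DMb1 over H2-Aa, H2-DMb2 over H2-DMb1 and H2-Oa over H2-DMa; a dot is 1 library and a bar the median. Stroma lies above the other labels in the upper panels (medians 4.69 and 0.505), and B cells lie above them for H2-DMb2 over H2-DMb1 (median 4.62).

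Ciita, which encodes the coactivator of the whole group, was the least abundant of the 7 genes and followed the same order. It had 54.3, 90.2, 90.3 and 52.1 CPM in DC, 54.4, 74.1, 49.8 and 80.0 CPM in B cells and 19.1, 23.0, 25.7 and 23.2 CPM in Myeloid. DC and B cells overlapped, and both lay above Myeloid in each library, by a median of 3.07-fold for DC, which was called, and 2.94-fold for B cells, which was not. ILC had 3.90 CPM (3.21 to 4.34), T cell EFF 2.20 (1.01 to 3.23), Stroma 1.71 (1.40 to 2.94) and NK cells 0.824 (0.729 to 1.80). No Ciita UMI was counted in cells labelled T cells, T cell Naive or Stem cells, which allows up to 2.57, 13.8 and 4.43 CPM, respectively, if 3 UMIs are taken as the limit that a count of 0 allows.

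In Myeloid, DC and Stroma, cells with a Ciita UMI also held more of the other 6 genes. After each cell had been thinned to 2000 UMIs, the 121 Myeloid cells with a Ciita UMI held a median of 37 UMIs of the other 6 genes, and the 2426 without held 5. In DC the medians were 80.5 UMIs in 64 cells and 42 in 475 cells. The mean was higher in the cells with a Ciita UMI in each of the 4 libraries, both in Myeloid and in DC. Both labels hold sets of cells, described below, that were low in Ciita and in class II together. The part of this mix in the difference was not tested. In Stroma, 72 cells with a Ciita UMI held a mean of 3.07 UMIs of the other 6 genes and the 15570 without held 0.469, again higher in each library. In B cells the medians of 54.5 and 53.5 UMIs were close, with 10 cells holding a Ciita UMI. Few cells of the other labels had a Ciita UMI. Means of the other 6 genes were 6.41 UMIs in 17 ILC cells with one and 1.46 in those without, 2.57 and 0.741 in T cell EFF (14 cells with one) and 2 and 0.453 in NK cells (4 cells with one). In M5 the T cell EFF and NK cells with a Ciita UMI held none of the other 6 genes, as did that of NK cells in M6, so libraries differed in direction.

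Of 12 listed factors that bring CIITA to the promoter or regulate it, 10 could be tested in DC over Myeloid, and 1 was called higher and 0 lower, where 3.09% of all genes were called higher and 4.6% lower. The gene called was Irf8, which encodes a transcription factor of DC development, at 2.53-fold with 1394, 1690, 1486 and 1649 CPM in DC. Irf8 did not follow class II over the labels. Its medians were 2076 CPM in NK cells and 1787 in ILC, against 1567 in DC, 628 in B cells and 601 in Myeloid. Rfxap, which encodes an RFX subunit, had 39.8 CPM in DC, 40.7 in Myeloid and 52.2 in Stroma (medians). Nfyb, of the NF-Y complex on the Y box, had 31.1, 27.0 and 30.8 CPM, and Creb1 had 47.3, 46.2 and 27.3 CPM in the same labels. In B cells over Myeloid, 0 of 11 tested regulators were called in either direction, against 4.6% of genes higher and 9.91% lower.

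Genes that load or turn over class II molecules differed in direction. Ctss, the cathepsin that cuts the invariant chain in DC and B cells, was lower in DC than in Myeloid, with 417, 432, 590.3 and 629 CPM against 1432, 1703, 2062 and 2087 CPM. Lgmn, another endosomal protease, was lower as well (8.65-fold), and these were the 2 of 5 tested genes of this list called in DC against Myeloid (4.6% of genes called lower). Cd83, whose product protects surface class II from ubiquitination, had 492 CPM in DC, 599 in B cells and 199 in Myeloid, and was called in B cells over Myeloid (2.87-fold) but not in DC over Myeloid (2.27-fold, log2 0.94 to 1.70). March1, the ubiquitin ligase for class II, had 33.1, 29.1 and 27.7 CPM in DC, B cells and Myeloid, and was not called. Its log2 ratio in B cells over Myeloid ran from -5.10 to 1.26 between libraries, so the B cell median is loose. Of the 3 co-stimulatory genes Cd40, Cd80 and Cd86, none was called in DC over Myeloid, where the medians were 1.26, 1.95 and 2.11-fold. Ifi30 was not analysed here.

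Single cells of the Myeloid label were spread widely. At 2000 UMIs per cell, the 7 genes together gave a median of 50 UMIs in 539 DC, with quartiles of 16 and 82, and of 54 UMIs in 112 B cells, with quartiles of 36.5 and 67. Myeloid cells had a median of 6, with quartiles of 1 and 26, and 20.02% of the 2547 cells had none. At least 20 UMIs were found in 70.7% of DC, 89.3% of B cells and 30.7% of Myeloid cells. The share in Myeloid was 28.2%, 32.2%, 31.1% and 31.04% in the order M1, M2, M5, M6. The limit of 20 UMIs was set after the values had been seen.

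**Figure D3:**
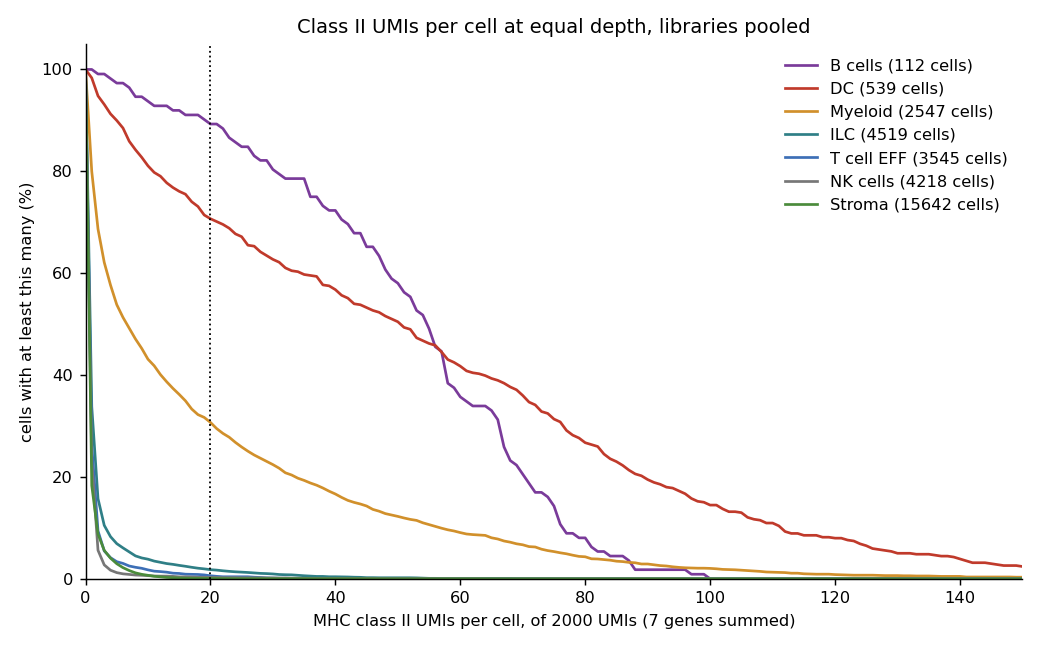
Share of cells (vertical axis, in percent) with at least the number of class II UMIs given on the horizontal axis, after thinning each cell to 2000 UMIs, with 1 line for each of 7 labels and the libraries pooled. The dotted line marks 20 UMIs, reached by 89.3% of B cells, 70.7% of DC and 30.7% of Myeloid cells.

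Cd74 was found in 93.5% of thinned DC (95% exact binomial interval 91.1 to 95.4, counting error only), 99.1% of B cells (95.1 to 99.98) and 68.4% of Myeloid cells (66.5 to 70.2). H2-Aa was found in 87.0%, 90.2% and 53.2% of the same cells. T cell EFF and NK cells were taken for comparison. Free RNA can give UMIs to cells that do not express a gene. Its part in the class II UMIs of T cell EFF and NK cells was not tested. Cd74 was found in 10.6% of T cell EFF cells (9.58 to 11.6) and 7.73% of NK cells (6.94 to 8.58), against 16.6% and 13.8% for the macrophage gene Lyz2. Without thinning, the shares of Cd74 were 96.0% in DC, 78.1% in Myeloid, 29.04% in T cell EFF and 17.6% in NK cells, at median depths of 9549, 8027, 10049 and 5397 UMIs.

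Across single cells the chains and the invariant chain moved together. Over the 6 pairs among H2-Aa, H2-Ab1, H2-Eb1 and Cd74, Spearman's rho within a library was 0.81 to 0.89 in DC, 0.77 to 0.86 in Myeloid and 0.50 to 0.79 in B cells. These points share library and depth, and the M5 B cells were too few to be used. H2-DMb1 with H2-Aa gave a lower rho, of 0.43 to 0.56 in DC and 0.55 to 0.58 in Myeloid. After thinning, H2-DMb1 was found in 50.8% of DC and 22.9% of Myeloid cells, against 87.0% and 53.2% for H2-Aa. Sparse counts lower rho, and their part in this difference was not tested. Ciita with H2-Aa gave 0.15 to 0.30 in DC and 0.13 to 0.27 in Myeloid, at counts too sparse to be read further.

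Cells picked from the DC label by other transcripts differed in class II. The 220 cells with Xcr1 or Clec9a and no Ccr7, transcripts of cross-presenting DCs, had 29180, 29289, 33946 and 35869 CPM of the 7 genes in M1, M2, M5 and M6. The 76 cells with both Ccr7 and Fscn1, transcripts of mature migratory DCs, had 10484, 13555, 21698 and 11847 CPM, and lay below the former in each library with no overlap. The median log2 ratio was -1.29 (-1.60 to -0.65), and both sets had similar depth, with medians of 11259 and 11612 UMIs per cell.

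All 7 genes were lower in the cells with Ccr7 and Fscn1 in each of the 4 libraries, but by different amounts. The share of all genes that were lower in each library between the same sets was not computed. The count of 7 therefore carries no weight of its own. Cd74 differed least, by a median log2 ratio of -1.06, and H2-DMb1 most, by -2.35, with 116, 123, 331 and 41.6 CPM against 582, 650.1, 718 and 688 CPM. H2-DMa stood at -2.13, H2-Ab1 at -1.85 and H2-Eb1 at -1.40, while H2-Aa stood at -1.13. Ciita was lower too, at 21.9, 57.5, 30.5 and 9.79 CPM against 78.6, 94.1, 93.1 and 96.6 CPM, from 32 and 320 UMIs.

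Turnover and co-stimulatory genes of the same cells went both ways. March1 was 6.90-fold lower in the cells with Ccr7 and Fscn1 (median log2 ratio -2.79, -3.38 to -2.07), the opposite in direction to Cd83, which was 2.19-fold higher (log2 0.84 to 1.28). Cd40 was 3.84-fold and Cd80 3.03-fold higher, each higher in all 4 libraries, and Cd86 was 1.33-fold higher (log2 0.05 to 0.72).

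The other DC sets spanned a wide range. The 114 cells with Siglech, a transcript of plasmacytoid DCs, had 8445, 6171, 19117 and 8933 CPM of the 7 genes, the lowest median of all DC sets (8689 CPM), and the 62 cells with Cd209a and neither of the former patterns had 12522, 16986, 37988 and 22899 CPM. M5 was the highest library in both sets, by over 1.5 times its nearest neighbour, at 24 and 14 cells. Of the 114 cells with Siglech, 38 were also among those with Xcr1 or Clec9a, 25 among those with Cd209a and 1 among those with Ccr7 and Fscn1, which left 50 in no other set. The 148 DC in no set, which can still hold Ccr7 or Fscn1 alone, had 32954 CPM (27369 to 40132).

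**Figure D4:**
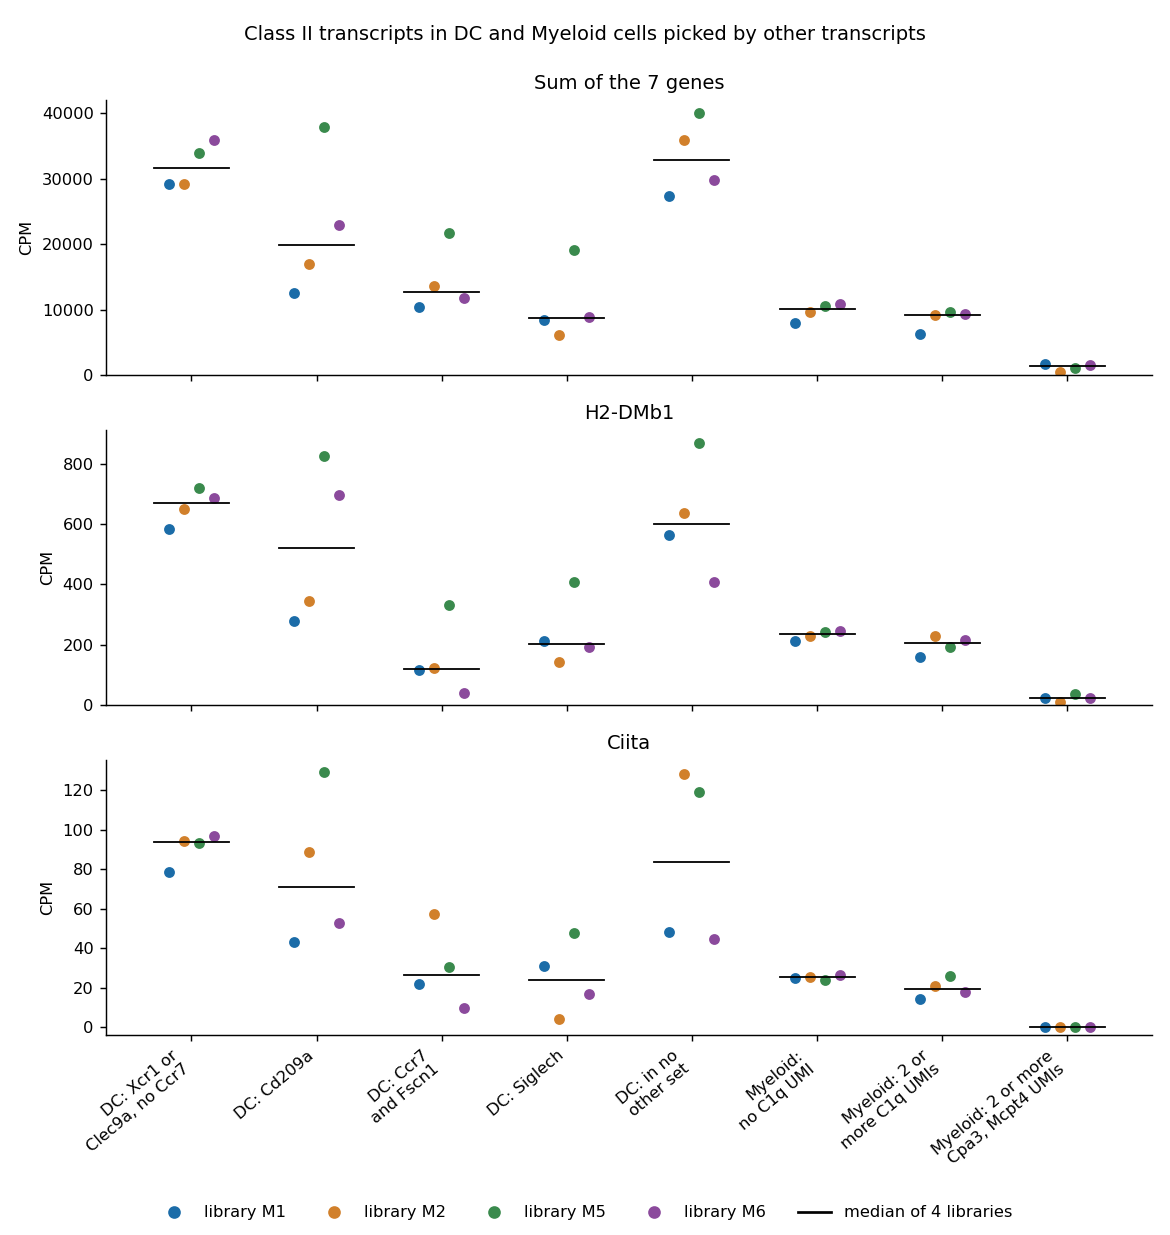
CPM of the 7 genes summed, of H2-DMb1 and of Ciita in DC and Myeloid cells picked by transcripts outside the group; a dot is 1 library and a bar the median of 4 libraries. Cells with Ccr7 and Fscn1 lie below cells with Xcr1 or Clec9a in all 3 panels, and Myeloid cells with Cpa3 or Mcpt4 have no Ciita UMI.

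Among Myeloid cells, class II did not follow the number of complement C1q transcripts, which mark tissue macrophages, in 1 direction. The 685 cells with at least 2 C1q UMIs of 2000 had 6346, 9179.7, 9718 and 9317 CPM of the 7 genes, and the 1642 cells with none had 7920, 9667, 10555 and 10853 CPM. The former were lower in each library, by a median log2 ratio of -0.17 (-0.32 to -0.07), a difference smaller than that between libraries. The 220 cells with 1 C1q UMI had 8573, 13578, 11656 and 9641 CPM, above the cells with none in 3 of 4 libraries. Of the 1642 cells with none, 260 were also in the Cpa3 and Mcpt4 set described next, and without such cells the median log2 ratio of the cells with at least 2 C1q UMIs to those with none was -0.25 (-0.48 to -0.18). By contrast, the 281 Myeloid cells with at least 2 UMIs of the mast cell genes Cpa3 and Mcpt4, a set chosen after the values had been seen, had 1657, 412.95, 1119 and 1629.5 CPM, below every other Myeloid set in each library. They gave 0 Ciita UMIs among 2300 class II UMIs.

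In cells labelled Stroma, the 7 genes were low but in other proportions than in Myeloid cells. Myeloid cells exceeded Stroma in each of the genes (16.4% of 7994 genes called higher), by 66.3-fold for H2-Ab1, 58.9-fold for H2-Aa and 56.0-fold for H2-Eb1 but by 14.7-fold for H2-DMb1. Ciita passed the filter only through Myeloid, so its call is no test, and its log2 ratio in Stroma over Myeloid moved with the pseudocount, from -3.58 at 0.1 CPM to -3.04 at 1 CPM and -1.46 at 10 CPM. The ratio of Cd74 to H2-Aa was 4.69 in Stroma (4.49 to 5.21) and 2.44 in Myeloid (2.38 to 2.71), and that of H2-DMb1 to H2-Aa was 0.505 (0.459 to 0.516) and 0.123 (0.118 to 0.153). Ciita to H2-Aa stood at 0.0684 (0.0471 to 0.0849) against 0.0130 (0.0119 to 0.0156). None of these ranges overlapped.

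The T cell EFF label matched Myeloid in some of these proportions and not in others. Its ratio of Cd74 to H2-Aa was 2.38 (2.03 to 2.56) and that of H2-DMb1 to H2-Aa 0.116 (0.104 to 0.159), both overlapping the Myeloid ranges. ILC had 2.25 and 0.108 for the same ratios. Other lymphocyte labels did not match, as Cd74 to H2-Aa was 1.94 in NK cells (1.89 to 2.26) and 2.08 in T cell MEM (1.74 to 2.29). Both ranges lay below that of Myeloid. H2-DMa to H2-Aa, however, was 0.341 in T cell EFF (0.2796 to 0.539) and 0.176 in Myeloid (0.155 to 0.2304), with no overlap, and H2-Oa to H2-DMa was 0.199 (0.141 to 0.295) and 0.0166 (0.0139 to 0.0203). Cd74 made up 57.1% of the class II UMIs in Stroma (55.6 to 58.5), against 45.6% in Myeloid, 50.3% in B cells and 40.4% in DC.

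Macrophage transcripts made up a small part of the Stroma UMIs. The 7 macrophage markers summed to 28.4 CPM in Stroma (24.6 to 34.1), 508 in T cell EFF (370 to 742), 777 in ILC (705 to 1127) and 10146 in Myeloid (8386 to 10193). In the 14663 Stroma cells with no macrophage marker UMI of 2000, the 7 genes had 148, 243, 301 and 256 CPM, and these cells made up most of the 15642. The 873 with 1 such UMI had 269.8, 364, 396 and 342 CPM and the 106 with 2 or more had 273, 315, 541 and 421 CPM, higher than the cells with none in each library. Lyz2 was found in 3.39% of Stroma cells after thinning but in 36.4% without it, against 16.6% and 42.0% of T cell EFF cells. Stroma cells with a UMI of the fibroblast gene Col3a1, 1814 in all and chosen after the values had been seen, had 237, 474, 511 and 258 CPM against 144, 225, 291 and 261 CPM in the others, higher in 3 of 4 libraries.

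In ILC, T cell EFF and NK cells, class II went with macrophage marker UMIs in the same cells, a split that was chosen after the values had been seen. ILC cells with no such UMI had 452, 307, 474 and 528 CPM of the 7 genes, and those with at least 2 had 2913, 2681, 4671 and 5202 CPM. In T cell EFF the values were 225, 160.2, 402 and 225 CPM against 2176, 2063, 3078 and 3999 CPM, and in NK cells 285, 108, 103 and 228 CPM against 1504, 1420, 2138 and 1254 CPM. The groups did not overlap in any of the 3 labels. B cells had no common direction, with 23015, 20829 and 24640 CPM in M1, M2 and M6 in cells with no such UMI and 27522, 22664 and 14577 CPM in the 8 cells with at least 2, of which M5 had none. Free RNA, doublets and the cells' own transcripts as sources of these UMIs cannot be told apart from these counts, and none of them was tested.

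**Figure D5:**
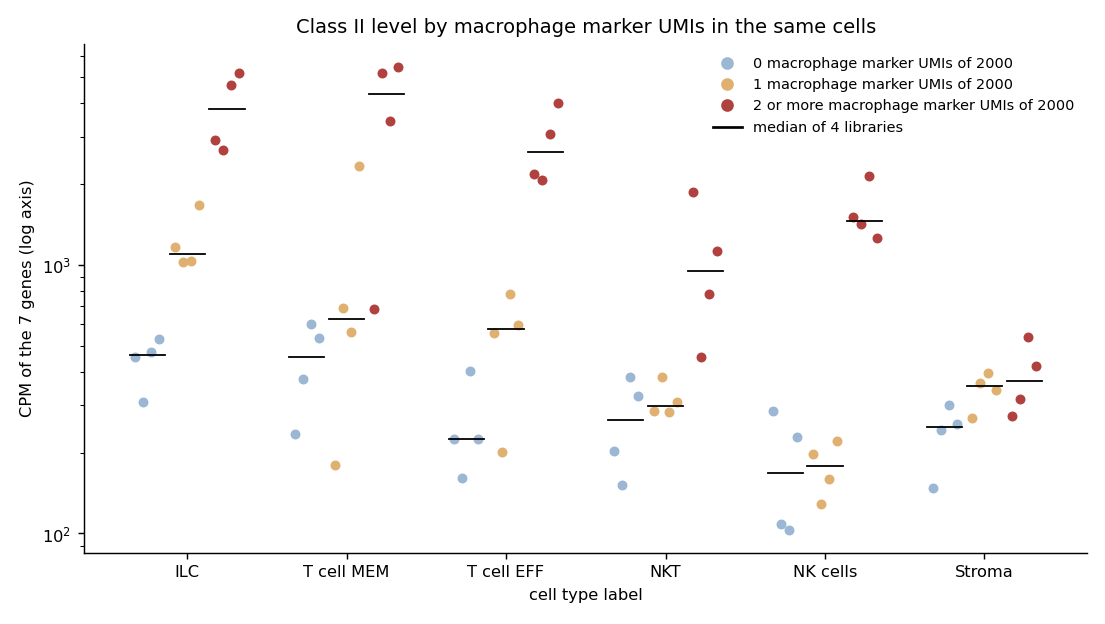
CPM of the 7 genes on a log axis in 6 labels, with the cells of each label split by their UMIs of 7 macrophage markers (0, 1, or 2 or more of 2000 UMIs); a dot is 1 library and a bar the median. In each of the 6 labels the cells with 2 or more lie above those with 0 of the same library, and the values of Stroma lie between 148 and 541 CPM.

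In ILC, T cell MEM, T cell EFF, NK cells and Stroma, few cells held most of the class II UMIs. After thinning, the 5% of cells with the most held 65.2% of the class II UMIs of ILC, 68.5% of T cell MEM, 65.4% of T cell EFF, 59.4% of NK cells and 63.7% of Stroma, against 27.5% in Myeloid, 15.4% in DC and 9.45% in B cells. Without thinning the shares were 83.1% in ILC, 86.1% in T cell MEM, 83.6% in T cell EFF, 69.2% in NK cells and 61.4% in Stroma. Thinned T cells had 53.8%, T cell Naive 55.3% and Stem cells 71.4%, from 10, 3 and 2 cells. A low level raises such a share by itself, since most cells then hold no class II UMI (66.2% of thinned ILC and 81.7% of Stroma). The share to be expected at each level was not computed. The 81 ILC cells with at least 20 such UMIs had a median depth of 28447 UMIs, and 61.7% of them had at least 2 macrophage marker UMIs and 58.0% a UMI of a CD3 chain. In the 2992 ILC cells with none, these were 10158 UMIs, 5.68% and 27.8%. A doublet score over 0.25 was found in 1.23% of the former, a share that rests on 81 cells, and 3.58% of the latter. It was found in 1.78% of all cells, and whether the former were doublets was not tested.

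Myeloid cells exceeded T cell EFF in each gene (9.78% of 7903 genes called higher), from 7.31-fold for H2-DMa to 15.4-fold for H2-Eb1, where Ciita passed the filter only through Myeloid. Among the lymphocyte labels, 5 of 6 genes tested were called higher in ILC than in NK cells (1.58% of 7530 genes called higher, 0.0531% lower). H2-DMa was not called, although its 50.4 to 61.1 CPM in ILC lay above the 23.0 to 30.1 CPM in NK cells. H2-DMb1, at 6.51 CPM in NK cells, passed the filter only through ILC. Of T cell EFF over NK cells, 0 of 5 genes were called (2.78% of 7616 genes higher, 2.02% lower), and of T cell MEM over NK cells 0 of 6 (3.73% of 7538 genes higher, 2.4% lower), where M1 ran against the other libraries for Cd74 (log2 -0.16 to 3.45). Cd74 had 499, 331, 635 and 639 CPM in ILC and 147, 76.5, 60.9 and 99.8 CPM in NK cells. Without the cells that had at least 2 macrophage marker UMIs, the summed level of ILC dropped from 1308 to 558 CPM and that of T cell EFF from 611 to 271 CPM. In cells with no such UMI, ILC had 452, 307, 474 and 528 CPM and NK cells 285, 108, 103 and 228 CPM. ILC was higher in each library, but by less than 2-fold in M1.

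M1 was the lowest library for class II in the 3 labels that held most of these UMIs. In each of DC, Myeloid and Stroma it was the lowest of the 4 for all 6 genes that could be tested, as it was for 4.93% of 6102 genes. Ciita was too low in Stroma to be tested, and this order was looked for after the values had been seen. M5 was the highest in all 3 labels for 2 of the 6, H2-Eb1 and Cd74 (4.7% of genes). In Stroma, Cd74 had 85.4, 141, 180.1 and 150 CPM in M1, M2, M5 and M6. B cells did not share this order, and their summed level differed by at most 1.05-fold between libraries. M1 was the highest library in B cells (23847 CPM), NK cells (381 CPM) and T cell Naive (470 CPM). M2 was the lowest in ILC (785 CPM), T cell EFF (379.9 CPM), NKT, T cells and Stem cells. T cell MEM had M1 lowest (335 CPM), like DC, Myeloid and Stroma.

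Irf1 stood in the same library order as Cd74 in Stroma. This gene, an interferon-gamma target that acts on the Ciita promoter, had 217, 257, 389.8 and 361 CPM, lowest in M1 and highest in M5, like Cd74. In DC it had 257, 257, 238 and 274 CPM, with M5 the lowest, and in Myeloid 251, 308, 394 and 400.2 CPM, with M1 the lowest and M6 the highest, as for H2-Aa and H2-Ab1. Creb1 and Nfya were lowest in M1 in all 3 labels. The receptor gene Ifngr1 had 42.0, 43.5, 41.2 and 43.7 CPM in Stroma and did not follow this order. Median depth per cell over all labels was 21801, 20266, 11399 and 12096 UMIs in the same library order, and the part of depth or treatment in this order was not tested.

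Over the 45 pairs of label and library with at least 10 cells, the genes outside the group most like its summed level were H2-DMb2 (Pearson's r = 0.9497 on log2(CPM + 1)), Cd180 (0.938), Ppfibp2 (0.928), Ctsh (0.924) and Pkib (0.917), among 12871 genes with at least 500 UMIs. The points share libraries and labels, so r is a description. Cd180 is known as a Toll-like receptor homolog of B cells and myeloid cells and Ctsh as an endosomal protease. Pkib, an inhibitor of protein kinase A, had medians of 384 CPM in DC, 129 in B cells and 37.7 in Myeloid, and Cd180 had 25.6, 43.1 and 31.7 CPM. Among the 7 genes, Cd74 had r = 0.994 and Ciita 0.946 with the sum, of which they are part.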

How the data were processed

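CD45+ bead-enriched CT26 tumor cells were profiled with 10x 3' v3 chemistry. Per the labels and the study's methods, the authors counted UMIs with Cell Ranger 3.0.2 on mm10 (GRCm38), kept cells over 500 UMIs and deposited un-normalized UMI counts for every cell, together with its library and a cell type label. Each label names the ImmGen profile that correlated best with the cell's own expression. Removal of doublets or free RNA was not given in the sources used here.

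Counts were summed per label and library and scaled to CPM. Shares and UMIs per cell were taken after thinning each cell without replacement to 2000 UMIs, which left out 696 shallower cells. Thinning and the 2-fold call were tested on simulated data. Scrublet (scanpy 1.11.5) gave 606 cells, 1.78%, a doublet score over 0.25, and these stayed in. Other tools were pandas 2.3.3, scipy 1.17.1 and numpy 2.4.6 under Python 3.11.15. Genes were named by list, plus the 5 most alike. The genes and lists were chosen with earlier results of these data known. The planned edgeR test of treatment was not run, since no library could be matched to a sample.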

Additional observations from a re-analysis of the deposited data

How the results depend on the processing

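No paired analysis was possible because none of the 4 libraries could be matched to a sample's replicate number. No log2 ratio changed sign under any alternative run, but the median class II counts per cell of DC and B cells changed order with the thinning depth. Without cells over 10% mitochondrial UMIs, the class II level of B cells was 24261 CPM, the share of Myeloid cells with Cd74 71.7% and their median class II count 8 UMIs. Without cells with 2 or more macrophage marker UMIs, ILC fell to 558 CPM, T cell EFF to 271 CPM (log2 ratio to Myeloid -4.98), and the shares with Cd74 were 7.33% in T cell EFF and 5.95% in NK cells. At 1000 UMIs per cell, the shares with Cd74 were 90.6% in DC, 96.8% in B cells, 60.6% in Myeloid, 7.65% in T cell EFF, 4.64% in NK cells and 8.62% in Stroma, and the median class II counts 24, 27 and 3 UMIs in DC, B cells and Myeloid. At 4000 UMIs, the shares were 79.5% in Myeloid, 16.7% in T cell EFF, 11.8% in NK cells and 17.8% in Stroma, and the medians 106.5, 81 and 19 UMIs. Without thinning, the shares were 78.1%, 29.04%, 17.6% and 40.8% in the same order. These shares and counts move with depth by construction, and also with the cells kept, since cells below each thinning depth are left out. The median B cell held 2811 UMIs, so at 4000 UMIs the order of DC and B cells was taken from another set of cells. In 197 other comparisons of a main value with an alternative, the value moved by less than 1 SD over libraries. Among single genes, 7 values moved, as the log2 ratio of Ciita in Stroma to Myeloid did from -3.04 to -1.46 with a pseudocount of 10 CPM. Leaving out 1 library gave medians of 26385 to 26489 CPM in DC and 9722 to 10288 in Myeloid. The median log2 ratio of cells with Ccr7 and Fscn1 to cells with Xcr1 or Clec9a was then -1.48 to -1.11. Such a median is always 1 of the middle library values, so these ranges do not measure stability. Over single libraries, DC had 21451 to 33434 CPM and the ratio was -1.60 to -0.65. Among the 7 genes, depth limits Ciita most, with 29 UMIs in B cells.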
